A study of Mus musculus with 6 samples.

Results

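The matricellular genes Ctgf, Cyr61 and Thbs1, the protease inhibitor gene Timp3 and the protease gene Adamts1 were followed across the cell classes of the mouse kidney. They are 5 of the 456 genes in a counting panel, and they were chosen because they stood out between furosemide and vehicle in an earlier look at these counts. Their treatment differences are therefore a description, with no p-value, and a count of calls among them rests on the values that chose them and supports nothing. The samples were kidneys of C57BL/6J mice (strain labelled C57BL/6), aged 16 weeks, and both groups ate a gel food that held 104 µmol sodium per kcal. For 1 week the food carried furosemide at 70 mg/kg body weight in 3 samples and vehicle in the other 3. Furosemide is a loop diuretic that blocks the sodium, potassium and chloride cotransporter of the thick ascending limb. Kidneys were dissociated by force and collagenase, and single-cell RNA went onto BD Rhapsody beads for whole-transcriptome and targeted libraries. All samples are labelled WT, with no transgene, and the labels name no cell sort.

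Matricellular proteins are secreted into the matrix, where they tune how cells adhere, migrate and respond to growth factors rather than holding the tissue together. Ctgf (also Ccn2) and Cyr61 (also Ccn1) belong to the CCN family and are standard readouts of the YAP and TEAD transcription factors, of serum response and of TGF-beta. Thbs1 encodes thrombospondin 1, which binds CD36 and CD47 and can activate latent TGF-beta. Timp3 is a matrix-bound inhibitor of metalloproteinases, among them the ADAMTS enzymes, and Adamts1 is a secreted protease of that family that cuts proteoglycans such as versican and aggrecan.

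RefSeq promoters were matched for 3 of the 5 genes, Cyr61, Timp3 and Adamts1. They are shown because Cyr61 and Adamts1 were found in the same cells more often than most pairs below. The 120 bases before each transcription start are given 5′ to 3′ on the gene's strand, in build GRCm38.p6, at chr3:145649986-145650105 (minus strand) for Cyr61, chr16:85803114-85803233 (minus strand) for Adamts1 and chr10:86300292-86300411 (plus strand) for Timp3. Capitals mark matches on either strand to GGAATG (the core bound by TEAD factors), TGACGT (part of the cAMP response element) and TATAAA (the TATA box).
Cyr61: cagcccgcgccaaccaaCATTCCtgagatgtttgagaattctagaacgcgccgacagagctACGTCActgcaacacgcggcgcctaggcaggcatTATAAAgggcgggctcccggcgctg
Adamts1: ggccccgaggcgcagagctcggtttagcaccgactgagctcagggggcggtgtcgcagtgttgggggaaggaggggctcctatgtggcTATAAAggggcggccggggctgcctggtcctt
Timp3: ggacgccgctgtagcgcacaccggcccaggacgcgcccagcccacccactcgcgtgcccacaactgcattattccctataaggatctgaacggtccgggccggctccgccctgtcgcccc
In the 250 bases before the start, Cyr61 held all 3 motifs, in the order of the capitals above. The TEAD core began 103 bases before the start and the cAMP element 59 bases before it, both on the strand opposite to the gene, and the TATA box began 25 bases before it. Adamts1 held the TATA box 32 bases before its start, and the Timp3 window held none of these letters. Over 32851 RefSeq promoter windows of the same length, 12.6% held the TEAD core on either strand, 6.47% the cAMP element and 12.4% the TATA box. These matches are a description and do not show binding.

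The table held 22154 cells in 15 classes named by the authors, in 6 libraries of 3051 to 4439 cells and 4819988 to 7635509 counts, with medians of 1073 to 1539.5 counts per cell. Libraries 1, 3 and 5 are vehicle and libraries 2, 4 and 6 furosemide. Levels are TMM-scaled CPM, a gene's counts over all panel counts in the sum of a library and class, so a level is a share of the panel and not of all RNA. In sums over cells, fewer cells that express a gene and less RNA per cell cannot be told apart. There were 196 cell barcodes in 2 or more libraries, carried by 392 cells. Defining markers were highest where the class names place them for the thick ascending limb (TAL, 5 of 6 listed), the distal convoluted tubule (DCT and DCT2, 5 of 5), the connecting tubule (CNT and DCT2, 4 of 4) and type B intercalated cells (BIC, 3 of 3). Of the listed thin limb markers 2 of 5 were highest in Thin Limb, and of the principal cell markers 1 of 4 was highest in CCD principal or OMCD principal (Aqp2 and Fxyd4 were highest in mystery cells and Scnn1g in CNT), so the names Thin Limb and CCD principal are also the authors'. For OMCD principal the leading genes were Aqp6 and Slc4a1, which mark type A intercalated cells, so that name is only the authors' label here. Podocytes/Glom held the highest levels of both endothelial markers (Cdh5, Tek) and of all 7 stromal and smooth muscle markers, and is a mixed class.

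Each gene had its own place along the nephron in the vehicle libraries. Cyr61 was highest in DCT at 17936 ± 1727 CPM (SD, n = 3), with 15960 CPM in its lowest library, above every library of Podocytes/Glom, the next class (highest library 11921 CPM). Ctgf was highest in Podocytes/Glom at 5574 ± 4681 CPM, where 1 of 3 libraries carried most of the sum: 2739, 3006 and 10977 CPM in libraries 1, 3 and 5. Without library 5 the Ctgf mean there was 2873 CPM. DCT came next for Ctgf at 1489 ± 424 CPM, so both CCN genes were high in the distal convoluted tubule. Ctgf was lowest in Proximal s2/s3 (8.45 to 14.6 CPM) and Cyr61 in Immune (143 to 641 CPM).

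Thbs1 was highest in Thin Limb at 14556 ± 2133 CPM, with every library above those of Immune, the second class (4260 ± 1974 CPM). It was the 11th gene of the Thin Limb class by fold over the other classes, so it lies close to the genes that define that class. Along the rest of the tubule it was higher in the distal classes than in the proximal ones, from 2351 ± 695 CPM in BIC and 1422 ± 78.2 CPM in DCT to 9 ± 4 CPM in Proximal s2/s3. Neighbours in that order mostly overlapped, the libraries of BIC, CCD principal, Podocytes/Glom, CNT, DCT and OMCD principal among them. The Immune value came almost wholly from 1 cluster of the authors' second clustering. In Macrophages sub2 (172 cells) Thbs1 stood at 12289 ± 2961 plain CPM (without TMM scaling) in vehicle libraries, against 100 ± 55 plain CPM in Macrophages sub1 (374 cells).

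Timp3 and Adamts1, the inhibitor and the protease, were both highest in Podocytes/Glom, at 10847 ± 1176 and 11261 ± 1658 CPM. Below that they parted. Timp3 was next highest in Thin Limb (5250 ± 553 CPM), Proximal s1/s2/s3 (4899 ± 246 CPM) and Proximal s1/s2 (4887 ± 310 CPM), 3 classes whose libraries overlapped, and no vehicle library of any other class exceeded 2004 CPM. Adamts1 was next highest in CCD principal (cortical collecting duct principal cells by the authors' name), at 6962 ± 803 CPM. Thin Limb followed at 4286 ± 993 CPM and CNT at 2950 ± 468 CPM. In DCT Adamts1 stood at 98 ± 26 CPM and in DCT2 at 34 ± 6 CPM, which put the 2 convoluted tubule classes near Immune (41 ± 18 CPM), while the adjoining connecting tubule was among the highest.

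**Figure D1:**
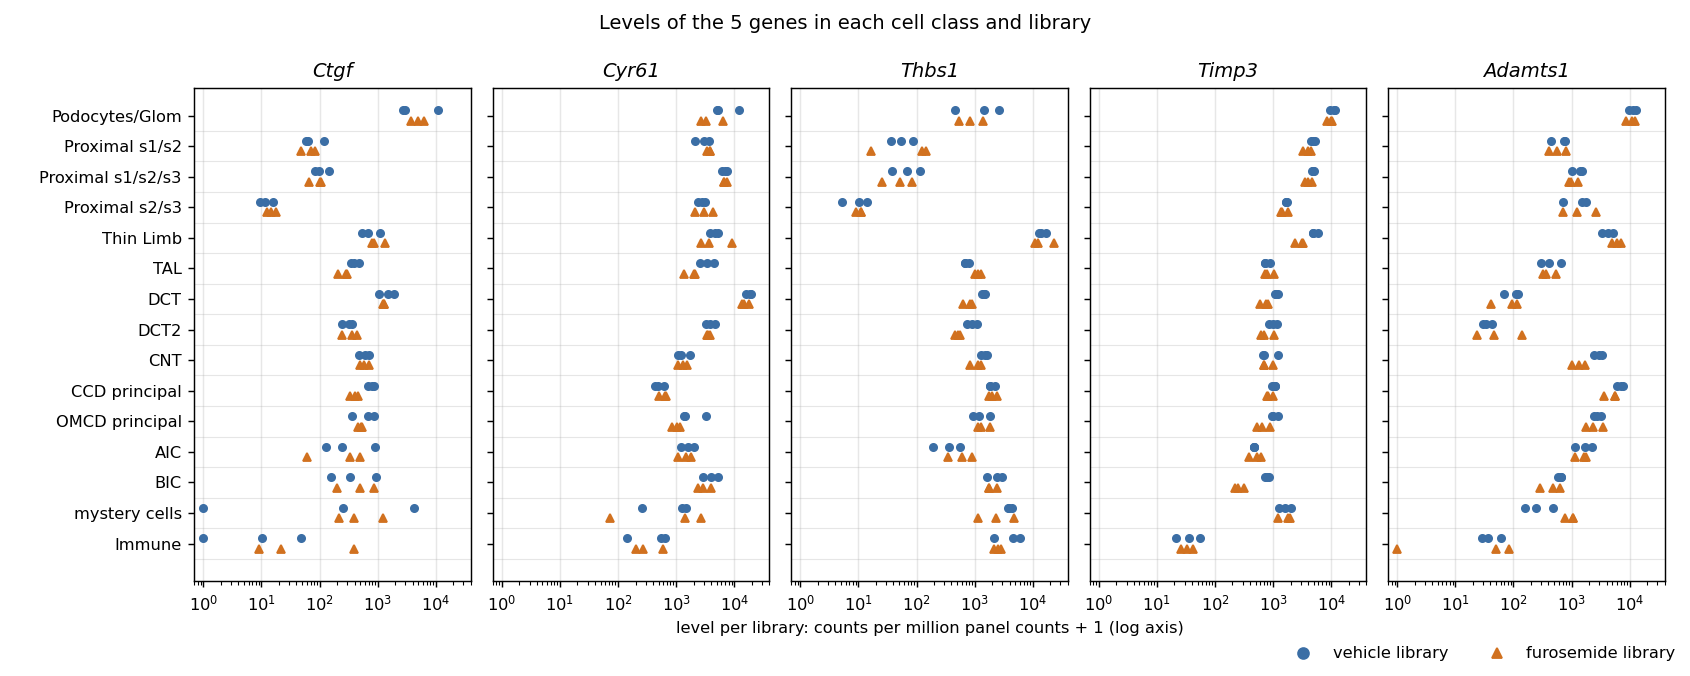
Level of each gene (CPM plus 1, log axis) in the 15 classes, with a circle for each vehicle library and a triangle for each furosemide library. Cyr61 peaks in DCT, Thbs1 in Thin Limb, and Ctgf, Timp3 and Adamts1 in Podocytes/Glom, and the spread between libraries is widest in classes with few counts such as mystery cells and Immune.

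Within Podocytes/Glom the levels of the 5 genes differed between groups of cells, though Cyr61 and Adamts1 were found in all groups. The class was divided by counts of the podocyte gene Nphs1 and the endothelial genes Cdh5 and Tek, a division made after the values were seen. The 171 vehicle cells with Cdh5 or Tek but no Nphs1 carried Timp3 at 13604 plain CPM over the group and Adamts1 at 12180 plain CPM. In the 47 vehicle cells with none of the 3 genes, where Acta2 (smooth muscle actin) reached 139661 plain CPM and Ren1 (renin) 43398 plain CPM, Ctgf stood at 17018 and Cyr61 at 21104 plain CPM, and Timp3 at 3259 plain CPM. The 32 vehicle cells with Nphs1 held Ctgf at 7730 plain CPM and Adamts1 at 8793 plain CPM. Adamts1 was at 9233 plain CPM in the vehicle cells with none of the 3 genes. Thbs1 was at 4707 plain CPM in those cells, 3681 in the cells with Nphs1 and 302 in those with Cdh5 or Tek. A Cyr61 count was found in 66.0%, 75% and 74.9% of these vehicle cells, in the same order. Cells with none of the 3 genes numbered 7, 8 and 32 with vehicle, by library, and 28, 18 and 5 with furosemide. Vehicle library 5, with 32 such cells, was also the library with the highest Ctgf (10977 CPM) and Cyr61 (11921 CPM) in the class; the part of this mix in the class levels was not tested.

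DCT also held unequal cells for Cyr61. In DCT sub1 of the second clustering (1648 cells) it stood at 20143 ± 960 plain CPM in vehicle libraries, and in DCT sub2 (241 cells) at 2745 ± 1244 plain CPM. Ctgf followed the same order, with 1632 ± 363 plain CPM in sub1 and 268 ± 153 in sub2.

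The panel genes whose levels followed each gene most closely over the 15 classes are given as a description, by Pearson's r of mean log2 CPM in the vehicle libraries. All classes of a library share its depth and handling. For Ctgf these were Rasa1 (r = 0.88), Hdac2 (0.86) and Tsc2 (0.85), for Cyr61 Tfrc (0.76), Pim3 (0.72) and Oxsr1 (0.65), and for Thbs1 Slc7a5 (0.92), Egr1 (0.92) and Nfe2l2 (0.91). Timp3 was followed by the basement membrane collagen gene Col4a3 (0.93), Id3 (0.85) and Igf1r (0.83), and Adamts1 by Col4a1 (0.85), Timp1 (0.75) and Id3 (0.70). Among the 5 genes themselves, r ran from -0.24 for Thbs1 and Timp3 to 0.59 for Cyr61 and Timp3 and for Ctgf and Thbs1, and stood at 0.29 for the CCN pair Ctgf and Cyr61.

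In single cells Ctgf and Cyr61 were found together. Cells were thinned to 500 counts each, which left out 1283 of 22154 cells (735 vehicle and 548 furosemide), and each pair of genes was compared within classes by a Mantel-Haenszel odds ratio, 1 per library. An odds ratio above 1 means that cells with a count of one gene had a count of the other more often than cells of the same class without it. For Ctgf and Cyr61 it was 1.94, 1.84 and 1.5 for vehicle and 1.81, 2.2 and 1.88 for furosemide, in library order, a geometric mean of 1.85 over 1134 cells with both. Over the libraries within single classes it was 2.66 in DCT, 2.38 in Proximal s1/s2/s3 and 1.79 in TAL, the classes with the most such cells apart from Podocytes/Glom (1.41).

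Cyr61 and Adamts1 came together at a similar rate, with a geometric mean of 1.77 and a range of 1.52 to 2.38 over the 6 libraries. This pair divided by class. The odds ratio was 2.83 in Proximal s2/s3, 1.98 in Proximal s1/s2/s3, 1.98 in TAL and 1.91 in Proximal s1/s2, and it was 0.74 in CCD principal and 0.69 in Thin Limb. For the protease and its inhibitor, Adamts1 and Timp3, the geometric mean was 0.89 (0.76 to 1.05), with 3.77 in the mixed class Podocytes/Glom and 0.63 in Thin Limb. The other 7 pairs had geometric means of 1.05 to 1.30. Without thinning every pair's odds ratio was higher, at 1.28 to 2.58.

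**Figure D2:**
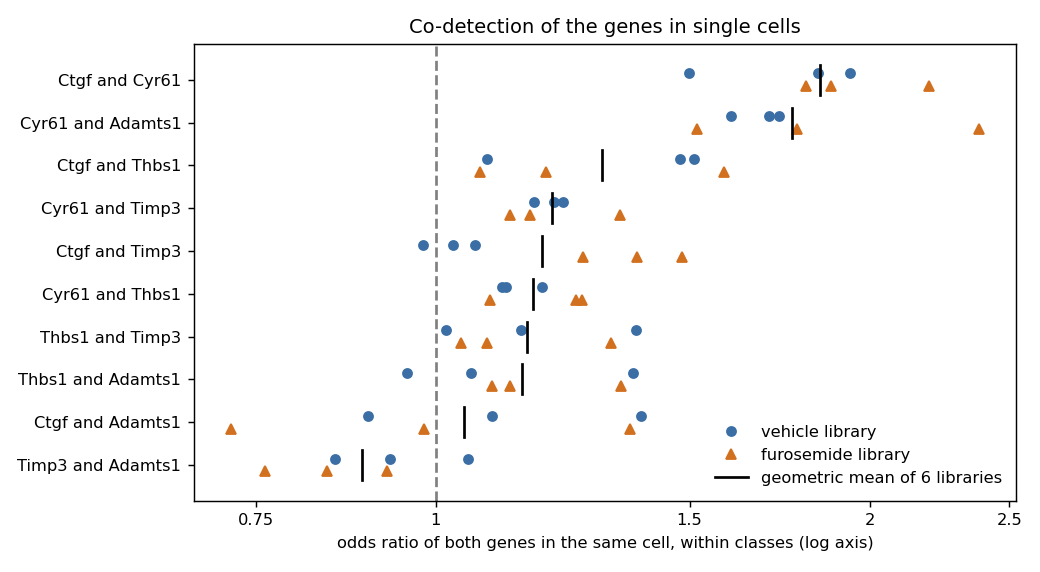
Odds ratio (log axis) that both genes of a pair had a count in the same cell, compared within classes in cells thinned to 500 counts, with a point for each library and a bar for the geometric mean of 6. All 6 libraries lie above 1 for Ctgf and Cyr61 and for Cyr61 and Adamts1, and 5 of 6 lie below 1 for Timp3 and Adamts1.

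Between treatments, 5 genes in 15 classes give 75 pairs, of which 70 had enough counts to be fitted. The 5 without a fit were Ctgf in mystery cells and Immune, Timp3 in Immune, and Adamts1 in Immune and DCT2. With edgeR's quasi-likelihood test over all panel genes and a Benjamini-Hochberg adjusted p under 0.05, 4 of the 70 pairs were called lower with furosemide, where 0.698% of all 3724 gene and class pairs were. In 15 of the 70 every furosemide library lay below every vehicle library (8.7% of all pairs) and in 2 every one lay above (8.4%). The 4 called pairs were Timp3 in BIC and DCT, Thbs1 in DCT and Adamts1 in CNT. On leaving out 1 library, Thbs1 in DCT missed the threshold without vehicle library 1 or 5, and Timp3 in DCT and Adamts1 in CNT missed it without any 1 of the libraries other than furosemide library 6. Because the genes were picked on this contrast, nothing is read from these calls or counts. The difference was negative in 46 pairs and positive in 24, with a median log2 difference of -0.16, beside 0.01 over all pairs tested. By gene the median was -0.24 for Ctgf, -0.12 for Cyr61, -0.23 for Thbs1, -0.26 for Timp3 and -0.14 for Adamts1.

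**Figure D3:**
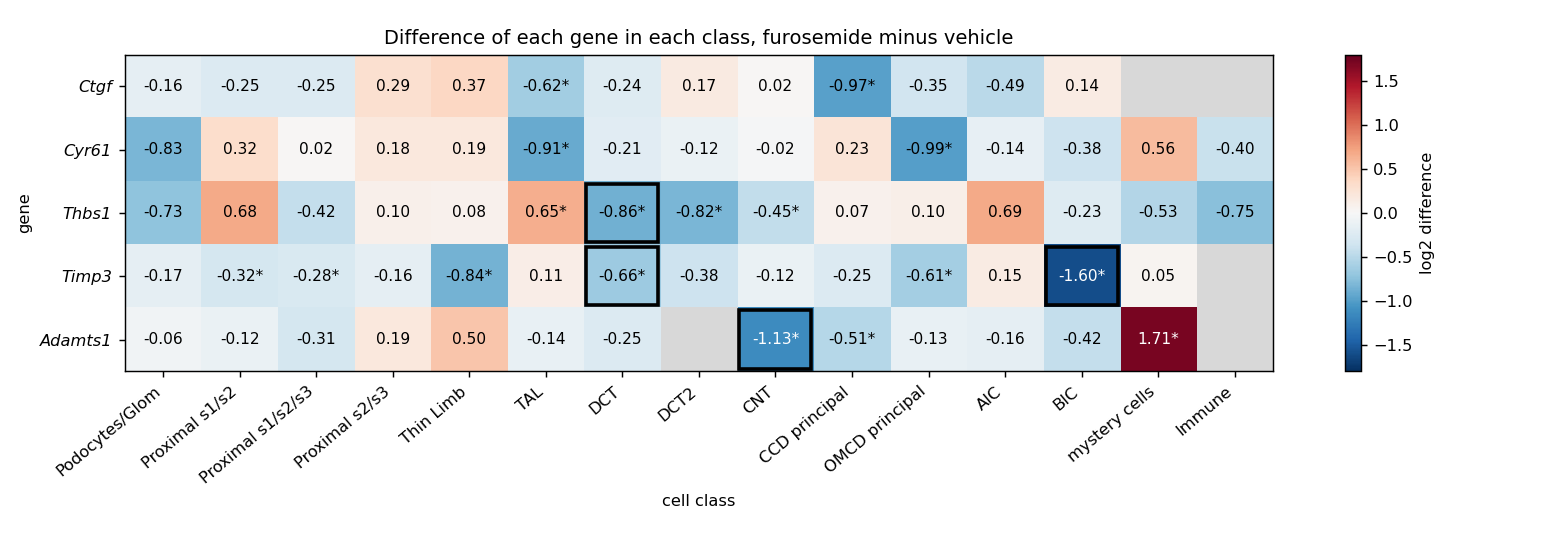
Log2 difference, furosemide minus vehicle, of each gene (rows) in each class (columns), blue where lower and red where higher with furosemide. Frames mark the 4 called pairs, stars mark pairs whose 3 furosemide libraries all lie on one side of the 3 vehicle libraries, and grey marks the 5 pairs that were not fitted.

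Of the 14 fitted Timp3 differences 11 were negative, beside 10 of 13 for Adamts1. In 6 of the 14 every furosemide library lay below every vehicle library, beside 8.7% of all gene and class pairs. As above, nothing is read from these numbers of classes. The clearest difference was in BIC, the type B intercalated cells that secrete bicarbonate through the pendrin gene Slc26a4. Timp3 there stood at 799, 726 and 842 CPM with vehicle (libraries 1, 3 and 5) and at 243, 312 and 222 CPM with furosemide (libraries 2, 4 and 6), the order kept in what follows. The 3 libraries of each treatment lay close together and the groups were far apart. The log2 difference was -1.60 ± 0.19 (SE), or 67.0% lower, and it ran from -1.76 to -1.46 over 14 other settings and leave-outs. Of the 5 genes, 1 was called lower in BIC (0.408% of 245 genes) and 1 had its 3 furosemide libraries all below (9.8%). These sums rest on 120 to 181 Timp3 counts per vehicle library and 36 to 59 per furosemide library.

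Fewer BIC cells carried a Timp3 count. Among thinned cells the share was 22.4%, 23.2% and 22.1% in the vehicle libraries and 12.2%, 13.3% and 7.77% in the furosemide libraries, and without thinning 43.5 ± 0.84% and 27.9 ± 4.84%. The groups stayed apart on both scales. In Immune, where Timp3 stood at 20 to 55 CPM in vehicle libraries, the thinned share was 2.78 ± 0.56% with vehicle and 2.92 ± 1.61% with furosemide, so the BIC shares lay above those of a class with little Timp3. Median depth was 1540 (vehicle) and 1679.5 (furosemide) counts in BIC and 750 and 883 in Immune. Beside this, the summed level of 7 proximal tubule markers in BIC was 2396 to 4377 CPM with vehicle and 1299 to 2291 CPM with furosemide, and 3 of the 7 lay all below. Markers of type A intercalated cells, a class with less Timp3, summed in BIC to 73766 to 82274 and 86680 to 107057 CPM. Of these 3 markers, 1 lay all above. Of the 3, 2 were highest in AIC or OMCD principal, and Atp6v1g3 was highest in BIC itself. The sum therefore includes a gene of BIC cells and is not a measure of type A cells alone. The part of both marker sets in the Timp3 difference was not tested.

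In DCT Timp3 was at 1085, 1193 and 1127 CPM with vehicle and 594, 751 and 817 CPM with furosemide. No furosemide library reached the lowest vehicle library. The log2 difference was -0.66 ± 0.15 (SE), and 2 of the 5, Timp3 and Thbs1, were called lower in DCT (1.82% of 275 genes) and lay all below (9.45%). The share of thinned DCT cells with Timp3 was 38.7 ± 1.25% with vehicle and 23.9 ± 3.93% with furosemide, and 63.8 ± 3.68% and 48.7 ± 4.95% without thinning. The Timp3 difference was -0.60 with equal cell numbers, where it was not called. It ran from -0.75 to -0.53 on leaving out each library. Summed DCT markers were 142010 to 155959 CPM with vehicle and 156553 to 191241 CPM with furosemide, and thin limb markers, from a class with more Timp3, 4149 to 4776 and 4809 to 6298 CPM. Their part in the Timp3 and Thbs1 differences was not tested.

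Thin Limb held the next large Timp3 difference, with 4931, 5889 and 4931 CPM against 3272, 2412 and 3112 CPM and a log2 difference of -0.84 ± 0.22 (SE). The groups did not overlap there (13.2% of 266 genes were all below). The immediate early genes, 6 in number, were also lower in Thin Limb as a sum, at 179584 to 198679 CPM with vehicle and 147079 to 158763 CPM with furosemide, and their part was not tested. In Proximal s1/s2 the Timp3 levels were 4894, 5194 and 4574 CPM against 3996, 4488 and 3277 CPM, a log2 difference of -0.32 ± 0.15 (SE), with 4.76% of 273 genes all below. Both endothelial markers lay all below there, with a sum of 27.1 to 46.6 CPM with vehicle and 3.48 to 21.7 CPM with furosemide, and 4 principal cell markers summed to 484 to 526 and 401 to 448 CPM. Their part was not tested. Proximal s1/s2/s3 was similar at -0.28 ± 0.13 (5.36% all below), and OMCD principal was at -0.61 ± 0.23 (9.43%), both without overlap. In the largest cluster of the second clustering, in plain CPM, the Timp3 groups overlapped in both and in Proximal s1/s2. Timp3 there was 5417 ± 194 and 4495 ± 815 in Proximal s1/s2/s3 and 1010 ± 156 and 720 ± 310 in OMCD principal. It was 5009 ± 294 and 4158 ± 939 in Proximal s1/s2. In OMCD principal the immediate early sum was 78307 to 83160 CPM with vehicle and 61339 to 75050 CPM with furosemide, 4 immune markers summed to 218 to 1092 and 42.6 to 144 CPM, and DCT markers to 3441 to 4624 and 5012 to 7668 CPM. In Proximal s1/s2/s3 DCT markers summed to 811 to 851 and 965 to 1041 CPM. The part of these in the differences was not tested. In TAL, the class of the drug's target, Timp3 was 788 ± 95.3 and 853 ± 165 CPM and the groups overlapped. Type A intercalated cells (AIC) were at 466 ± 4.39 and 512 ± 112 CPM, so the direction there was not that of BIC. The RefSeq annotation places Timp3 within the bounds of Syn3, a synapsin gene, and whether the counting used strand is not given in the sources used here.

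Thbs1 was lower with furosemide in the distal convoluted and connecting tubules and higher in the thick ascending limb, 2 differences that were not tested against each other. In DCT it was at 1493, 1435 and 1338 CPM with vehicle and 828, 643 and 891 CPM with furosemide, a log2 difference of -0.86 ± 0.15 (SE). All furosemide libraries lay well below the vehicle libraries. The difference was -0.83 without vehicle library 1 and -0.92 without vehicle library 5. The thinned share of DCT cells with a Thbs1 count was 44.1%, 48.2% and 39.4% against 29.8%, 26.1% and 28.1%. Unthinned shares overlapped, at 65.2 ± 7.49% and 53.3 ± 6.16%. In Proximal s2/s3, where Thbs1 was lowest, the thinned share was 0.44 ± 0.30% and 0.47 ± 0.37%, at median depths of 1404 and 1532 counts, against 1318 and 1334 in DCT.

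DCT2 and CNT pointed the same way as DCT. Thbs1 in DCT2 was at 731, 902 and 1103 CPM with vehicle and 561, 515 and 460 CPM with furosemide, a log2 difference of -0.82 ± 0.21 (SE), and 9.95% of 211 genes there lay all below. In CNT it was at 1486, 1307 and 1614 CPM against 1135, 822 and 1281 CPM, or -0.45 ± 0.19 (SE), where 14.8% of 256 genes lay all below. In both classes every furosemide library lay below every vehicle library. In DCT2 the immediate early genes summed to 49229 to 55634 CPM with vehicle and 43921 to 49021 CPM with furosemide, and their part was not tested.

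In TAL Thbs1 was higher with furosemide. Its levels were 692, 812 and 681 CPM with vehicle and 1151, 1008 and 1281 CPM with furosemide, with a gap between the groups. The log2 difference of 0.65 ± 0.14 (SE) ran from 0.54 to 0.70 over 8 other settings and from 0.55 to 0.78 on leaving out each library, and 12.6% of 317 genes in TAL lay all above. The share of thinned TAL cells with a Thbs1 count was 24.6%, 28.6% and 27.6% with vehicle and 36.5%, 35.7% and 35.5% with furosemide, and unthinned 54.9 ± 7.22% and 65.7 ± 1.18%. Thin limb markers, from the class with the most Thbs1, summed in TAL to 9923 to 10988 CPM (vehicle) and 6590 to 8191 CPM (furosemide). DCT markers, from a class with more Thbs1 than TAL, summed there to 2891 to 2969 and 3640 to 8057 CPM. The part of these markers in the Thbs1 difference was not tested. In Macrophages sub2 Thbs1 was 12289 ± 2961 plain CPM with vehicle and 7150 ± 404 plain CPM with furosemide, without overlap. That cluster held 21 or more cells in each library, and the share of all genes without overlap in it was not computed. Over the whole Immune class Thbs1 was 4260 ± 1974 and 2527 ± 365 CPM, and the groups overlapped. The thinned share of Immune cells with a Thbs1 count was 9.44 ± 5.64% and 13.9 ± 3.33%, which also overlapped.

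The CCN genes were lower in TAL, where Thbs1 was higher. Cyr61 in TAL was at 4484, 3352 and 2613 CPM with vehicle and 1360, 2058 and 2146 CPM with furosemide. The 2 groups did not overlap, and vehicle library 5 and furosemide library 6 were the nearest to each other. The log2 difference was -0.91 ± 0.26 (SE), and -0.68 without furosemide library 2, the lowest. Thinned shares of TAL cells with a Cyr61 count were 47.3 ± 6.29% and 30.8 ± 6.42%, and 62.7 ± 6.02% and 45.8 ± 7.42% without thinning, beside 6.98 ± 2.81% and 6.54 ± 1.61% of thinned Immune cells. Ctgf in TAL was at 389, 480 and 351 CPM against 209, 301 and 280 CPM, or -0.62 ± 0.19 (SE), again without overlap. Of all genes in TAL, 11% lay all below. Stromal and smooth muscle markers, from the cells with the most Ctgf and Cyr61 in Podocytes/Glom, summed in TAL to 73.7 to 260 CPM with vehicle and 37.4 to 46.8 CPM with furosemide, endothelial markers to 13.2 to 35 and 0 to 13 CPM, and proximal tubule markers to 2430 to 3341 and 1982 to 2238 CPM. DCT markers were higher, at 2891 to 2969 against 3640 to 8057 CPM. The part of these markers in the TAL differences was not tested. The 6 immediate early genes summed in TAL to 90789, 84139 and 66601 CPM with vehicle and 48240, 71780 and 73035 CPM with furosemide, which overlapped; furosemide library 2 was lowest for Cyr61, for Ctgf and for that sum.

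Ctgf differed most in CCD principal. It was at 807, 687 and 872 CPM with vehicle and 334, 457 and 411 CPM with furosemide, so the highest furosemide library was well under the lowest vehicle library. The log2 difference was -0.97 ± 0.18 (SE), with -1.05 to -0.86 on leaving out each library, and 11% of 281 genes there lay all below. In this class stromal and smooth muscle markers summed to 62.6 to 309 CPM with vehicle and 27.2 to 46.2 CPM with furosemide, type A intercalated markers to 2178 to 3032 and 878 to 2001 CPM, and type B markers to 313 to 485 and 103 to 261 CPM. DCT and CNT markers were higher, by the values given with Adamts1, and the part of all these was not tested. The share of thinned cells with Ctgf was 14.1 ± 2.0% and 8.74 ± 2.88%, and 25.1 ± 5.09% and 18.1 ± 2.82% without thinning, where the groups overlapped. In DCT, the tubule class with the most of both CCN genes, Ctgf was 1489 ± 424 and 1267 ± 40 CPM and Cyr61 17936 ± 1727 and 15551 ± 2355 CPM, and the groups overlapped for each. Cyr61 in OMCD principal was at 1372, 1407 and 3314 CPM against 1052, 834 and 1171 CPM, a log2 difference of -0.99 ± 0.36 (SE). It was -0.41 without vehicle library 5 and -0.01 in the largest cluster of that class.

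Adamts1 was lower in CNT and in CCD principal. In CNT its levels were 2999, 2460 and 3391 CPM with vehicle and 1325, 1018 and 1722 CPM with furosemide. Each furosemide library was below each vehicle library. The log2 difference was -1.13 ± 0.21 (SE), or 54.2% lower, and it was 1 of 5 genes called lower in CNT (2.73% of 256 genes). The difference was -1.12 without a filter on low counts, where it was not called. It ran from -1.38 to -0.95 on leaving out each library. The share of thinned CNT cells with a count was 45.5%, 41.3% and 50% with vehicle and 27.7%, 23.9% and 27.4% with furosemide, and 58.0 ± 4.39% and 43.0 ± 3.67% without thinning. In Immune the thinned share was 2.53 ± 1.78% and 1.40 ± 1.22%.

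Markers of the distal convoluted tubule, a class with little Adamts1, were higher in CNT with furosemide. The 5 listed genes summed to 11621 to 22815 CPM with vehicle and 44967 to 66248 CPM with furosemide, with 4 of 5 above in every library. The 4 principal cell markers summed to 23600 to 27415 CPM with vehicle and 21737 to 23457 CPM with furosemide, without overlap, and CCD principal held the most Adamts1 among the tubule classes. Of these 4 markers 1 lay all below, and Scnn1g among them was highest in CNT itself. The part of both marker sets in the Adamts1 difference was not tested. Within CNT sub2, the largest cluster of the class in the second clustering (964 cells), Adamts1 was 3374 ± 757 and 1312 ± 148 plain CPM, without overlap. CCD principal was at 6093, 7675 and 7118 CPM against 5570, 3563 and 5542 CPM, a log2 difference of -0.51 ± 0.20 (SE) that came to -0.28 without furosemide library 4. DCT and CNT markers were higher in that class too, at 5520 to 8261 against 13104 to 19870 CPM and 5753 to 10885 against 15070 to 23980 CPM, and their part was not tested. In mystery cells Adamts1 was higher, at 243, 469 and 154 CPM against 1057, 764 and 1072 CPM, from 3 to 10 counts per vehicle library and 15 to 41 per furosemide library, where 9.16% of 131 genes lay all above. The shares of mystery cells with a count overlapped, at 11.8 ± 8.65% and 16.9 ± 2.25% thinned and 14.7 ± 6.56% and 21.7 ± 6.61% without thinning. In Podocytes/Glom, its highest class, it was 11261 ± 1658 and 10725 ± 1758 CPM, and the groups overlapped.

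**Figure D4:**
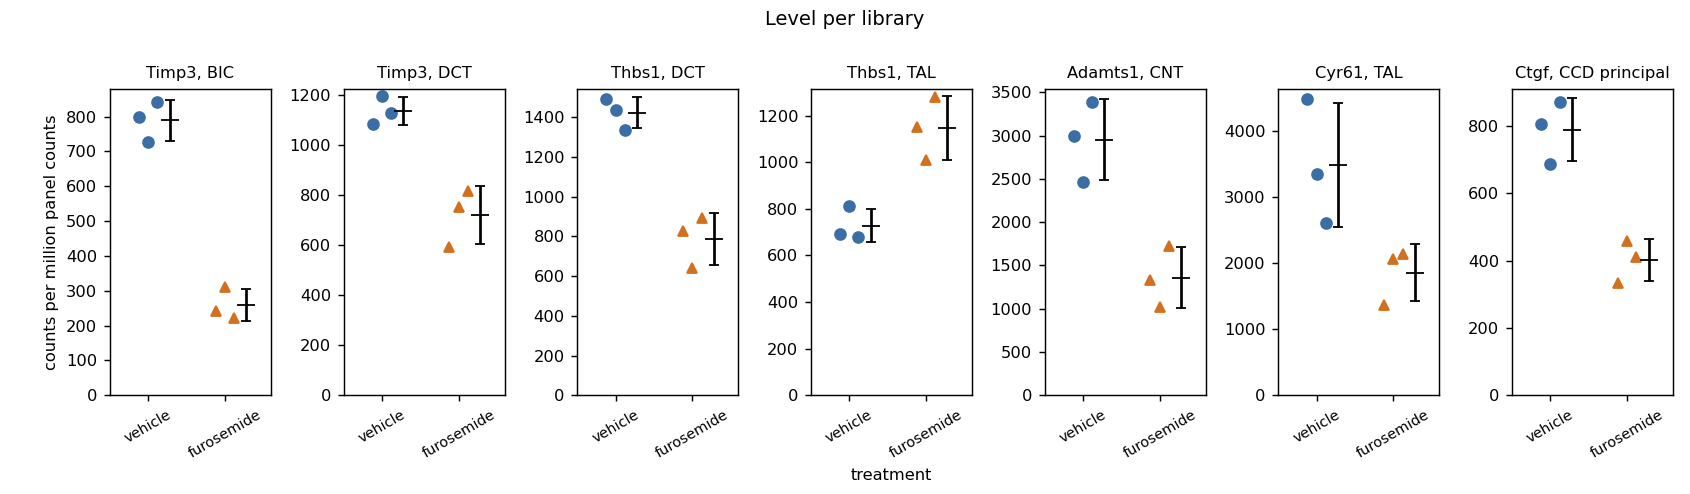
Level per library (CPM, axes from 0) of 7 pairs of gene and class, with the mean and SD of 3 libraries as a bar beside the points. Furosemide libraries lie below vehicle libraries in 6 of the 7 panels and above them for Thbs1 in TAL (1008 to 1281 against 681 to 812 CPM).

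**Figure D5:**
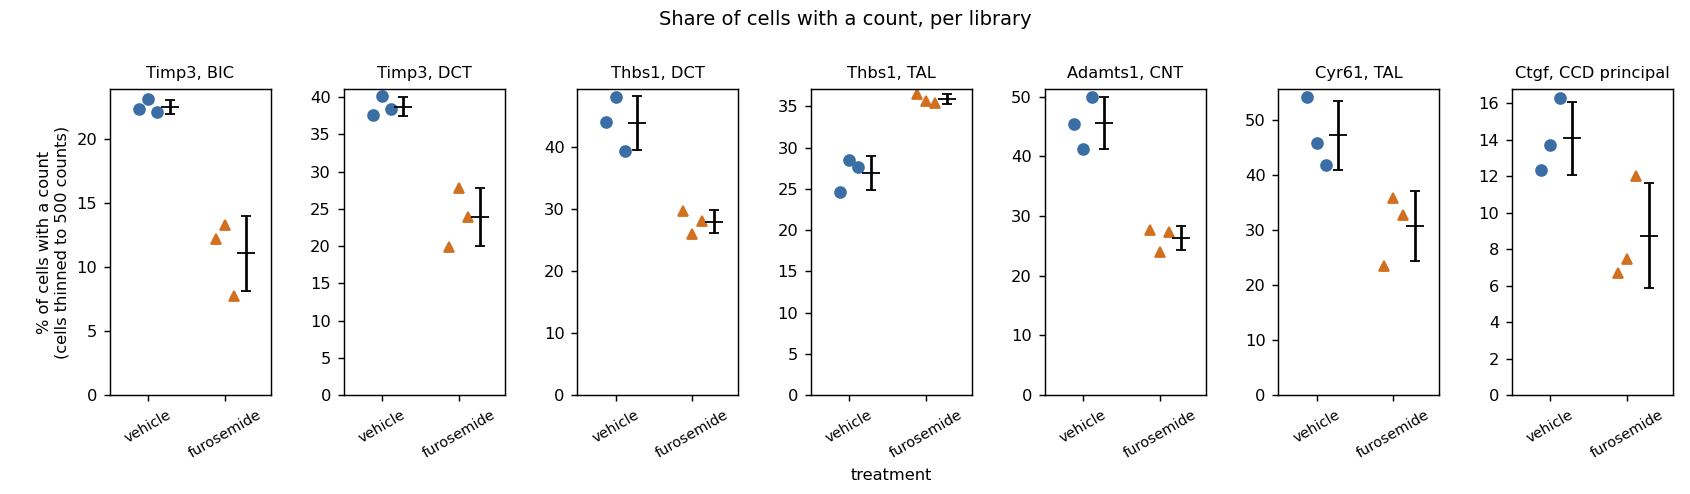
Share of cells with a count of the gene, in cells thinned to 500 counts, for the same 7 pairs, with the mean and SD of 3 libraries as a bar. The shares divide the libraries the same way as the levels, for example 7.77% to 13.3% against 22.1% to 23.2% for Timp3 in BIC.

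Other panel genes of the pathways around these 5 were tested in the same fits, from 8 lists that hold 54 panel genes besides the 5. Of 455 pairs of list gene and class, 3 rose and 6 fell by edgeR's quasi-likelihood test with Benjamini-Hochberg adjustment, 1.98% beside 1.45% of all pairs, while DESeq2 called 42. Replicates are separate samples by their labels, which do not say that they were separate animals, so p-values measure only the spread between these samples.

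Among other matricellular and metalloproteinase genes, Spp1 (osteopontin) rose in DCT and Pappa2, a metalloproteinase that cuts insulin-like growth factor binding proteins, rose in TAL. Spp1 was at 16069, 19929 and 16973 CPM with vehicle and 26246, 31293 and 27663 CPM with furosemide, a log2 difference of 0.69 ± 0.15 (SE) with an edgeR adjusted p of 0.025. It was called in 1 of 6 leave-outs, without vehicle library 3, and edgeR's adjusted p ran from 0.039 to 0.15 over the 6. The Spp1 call was also lost with library size alone and with equal cell numbers (edgeR's adjusted p up to 0.13). Pappa2 was at 37.7, 24.6 and 26.6 CPM against 195, 299 and 167 CPM, a log2 difference of 2.89 ± 0.30 (SE) with an edgeR adjusted p of 0.0061. It was called in all 6 leave-outs (edgeR's adjusted p 0.0061 to 0.041) and not with equal cell numbers (0.058). Spp1 was the 1 call among 20 matricellular pairs (median log2 difference 0.27) and Pappa2 the 1 call among 25 metalloproteinase pairs (median 0.04).

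Genes of the growth factor, TGF-beta, serum response and immediate early lists fell in CNT (3 genes) and TAL (2 genes). Over all classes the calls were 2 of 66 pairs for growth factors, 1 of 85 for TGF-beta and 1 of 83 for immediate early genes. On the serum response list 1 of 50 pairs fell and 1 rose, Birc5 in DCT, given below. Of all 256 genes in CNT, 2.73% were called lower. In CNT, Hbegf (a ligand of the EGF receptor) fell from 3017 ± 353 to 1961 ± 192 CPM, Smad7 (an inhibitor of TGF-beta signalling) from 796 ± 63.0 to 494 ± 65.3 CPM and Sphk1 (sphingosine kinase) from 387 ± 16.9 to 203 ± 44.9 CPM. Their log2 differences were -0.62 ± 0.15, -0.69 ± 0.16 and -0.92 ± 0.21 (SE), with edgeR adjusted p of 0.043, 0.039 and 0.039. All 3 calls were lost whichever library was left out (edgeR's adjusted p 0.053 to 0.23). Over 8 other settings Hbegf and Sphk1 were each called in 4 and Smad7 in 5. In TAL, Pdgfb (a platelet-derived growth factor) fell by 1.97 ± 0.37 (SE) on the log2 scale and Myc by 0.86 ± 0.17, each with an edgeR adjusted p of 0.043. Pdgfb kept its call in 1 of 6 leave-outs, without vehicle library 5, and Myc in none (edgeR's adjusted p 0.028 to 0.20 over both). Myc was called in 5 of the 8 other settings and Pdgfb in all 8.

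In DCT, Hspa1a (heat shock protein 70) fell from 3691 ± 888 to 1603 ± 309 CPM, a log2 difference of -1.20 ± 0.21 (SE) with an edgeR adjusted p of 0.011, and Birc5 (survivin, made by dividing cells) rose from 11.3 ± 7.1 to 185 ± 98.1 CPM, or 3.98 ± 0.53 with an edgeR adjusted p of 0.005. Hspa1a missed the threshold without vehicle library 1 (-1.04) or 5 (-1.20) and Birc5 without vehicle library 5 (3.79), at an edgeR adjusted p of 0.051 to 0.053. The vehicle Birc5 level rests on few counts: in DCT vehicle library 3, 28 counts of Adamts1 gave 68.3 CPM. Shares of cells with Birc5 were not computed. In BIC, where the Timp3 difference was largest, the matrix gene with the smallest p was Col4a1, at 830, 968 and 667 CPM against 1178, 1088 and 825 CPM (edgeR adjusted p 0.56). The metalloproteinase list genes there were Mep1a (0.45 by edgeR) and Timp1, another inhibitor of the family, at 18 to 67 CPM against 62 to 137 CPM (0.51 by edgeR). None of these 3 passed the test. Of the matrix and basement membrane list edgeR called 0 of 67 pairs, with 7 at an unadjusted p under 0.05 and 3 called by DESeq2. List medians over all classes were -0.20 for TGF-beta and BMP signalling, -0.02 for the YAP, TEAD and serum response list, -0.29 for growth factors, -0.16 for immediate early genes and -0.12 for heat shock genes, beside 0.01 for all genes tested.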

How the data were processed

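Single kidney cells of 3 vehicle and 3 furosemide samples were counted for 456 panel genes. The deposited counts are whole numbers per cell and gene, per the file headers and the labels, and neither molecules nor reads are named. Bowtie2 2.2.9 was used, per the submitters' processing notes. The genome build, the counter and the barcode correction are not given in the sources used here. Doublets and a mixed cluster had been removed and cell numbers made equal between treatments by the authors, per the deposited file's name. The authors' annotation gives other values per cell, namely library, treatment, class and a second clustering.

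Counts were summed per library and class (at least 12 cells) and fitted per class over all panel genes in R 4.3.3 by edgeR 4.0.16, using TMM factors, filterByExpr, a robust glmQLFit and glmQLFTest. Calls used a Benjamini-Hochberg adjusted p under 0.05. Levels are TMM-scaled CPM. Simulated counts with known changes tested the fit. Shares of cells and odds ratios used cells thinned to 500 counts with a fixed seed in Python 3.11.15. Alternatives were other scaling, no filter, DESeq2 1.42.0, leaving out each library, equal cell numbers, leaving out the 5% of cells with the highest totals, thinned cells and the largest cluster of the second clustering. Strata by class and second clustering were added after seeing the data.

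The 5 genes, the lists and the markers were chosen with earlier results of these data known. Named genes are the 5 in every class, the 3 most similar panel genes of each, the called list genes (at most 6 per list and class) and, in a class with no call on a list, the 2 list genes of smallest p, of which the text gives those of BIC for 2 lists, with 1 gene not reported here.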

Additional observations from a re-analysis of the deposited data

Results flagged for a closer look

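Thbs1 lay above all vehicle libraries in every furosemide library of TAL and below them in every furosemide library of DCT, DCT2 and CNT. The log2 difference in TAL exceeded that in DCT by 1.51, that in DCT2 by 1.47 and that in CNT by 1.1. Adamts1 lay above all vehicle libraries in mystery cells and below them in CNT and CCD principal, with log2 differences that were 2.83 and 2.22 apart. None of these contrasts between classes was tested, and the Adamts1 values in mystery cells rest on 3 to 41 counts per library.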

How the results depend on the processing

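The count of gene and class pairs called among the 5 genes was 4, 11 with DESeq2, 7 in thinned cells and 1 to 4 on leaving out each library. For the list genes the count of calls was 9, 42 with DESeq2, 5 with equal cell numbers and 2 to 5 on leaving out each library. Without thinning, the geometric mean odds ratio was 2.58 for Ctgf and Cyr61, 1.70 for Ctgf and Thbs1, 1.57 for Ctgf and Timp3, 1.38 for Ctgf and Adamts1, 1.71 for Cyr61 and Thbs1, 1.79 for Cyr61 and Timp3, 2.52 for Cyr61 and Adamts1, 1.64 for Thbs1 and Timp3, 1.41 for Thbs1 and Adamts1 and 1.28 for Timp3 and Adamts1, above 1 where thinned cells gave 0.89. With class and second clustering as strata, chosen after seeing the data, these were 1.74 for Ctgf and Cyr61 and 1.75 for Cyr61 and Adamts1. The differences of the 5 genes were refitted under the alternatives for 17 pairs of gene and class, those without overlap between the groups, and none of these 17 changed sign. The causes were not tested. No paired analysis was possible because the replicate numbers of the samples could not be joined to the library numbers of the cells. Classes with few counts (mystery cells, Immune, AIC) limit what can be seen there, and a level is relative to the panel.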
